A study of Homo sapiens with 4 samples.

Results

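Gene expression in FaDu cells transfected with miR-489 was compared directly with that in FaDu cells transfected with miR-504. FaDu is an established line that came from a squamous cell carcinoma of the hypopharynx (HSCC). Of the 4 arrays of the series, the 2 FaDu arrays were used, 1 for each miRNA, and the other 2 hold the same transfections of HSC3, a squamous cell carcinoma line of the tongue. On each array RNA of a miRNA transfectant carried Cy5, and RNA of the control miRNA transfectant of that line carried Cy3. Mature miRNAs were introduced transiently, and cells were taken 72 h after transfection. The measure was the log2 ratio of Cy5 over Cy3, centred on its median, on the miR-489 array minus that on the miR-504 array. A negative difference therefore means a lower mRNA level after miR-489 than after miR-504. A dye effect of a probe cancels in the difference as far as it is the same on both arrays. The comparison asks which mRNAs differ between cells given miR-489 and cells given miR-504, whatever both have in common against the control.

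Of 30982 gene names on the array, 16692 were measured in FaDu cells, that is, the brightest probe was well above background in both channels of both arrays. Of these, 11337 could be paired with a current symbol. The 2 arrays carry 1 culture each and no test is possible, so that a gene was counted when it differed at least 2-fold, which is a difference of 1 on the log2 scale. Whether such a difference exceeds the variation between transfections was not tested.

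The labels do not state which arm of a precursor was transfected, nor whether both FaDu arrays carried 1 preparation of control RNA. A lower level after miR-489 and a higher level after miR-504 both lower the difference, and the ratio on each array is therefore given beside it. A lower mRNA level per cell and fewer cells that express the mRNA cannot be told apart in these data.

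Markers of squamous epithelium were present in the control channels. Of 8 such genes 7 were on the array, and all 7 were well above background in the Cy3 channel of both FaDu arrays, with KRT5 at signals of 27993 and 16667. Of 12 markers of blood, vessel, connective tissue, muscle, nerve and pigment cells, 3 were well above background there, namely CD68, CD79A and GFAP. PTPRC, PECAM1, COL1A1 and COL3A1 were not. The summed Cy3 signal of the 12 was 1175 on the miR-489 array and 1408 on the miR-504 array, and that of the squamous markers was 56286 and 40140. Single markers did not all follow the sums. CD79A, at 644 and 682, was brighter than the squamous markers DSG3 (245 and 265) and PKP1 (84.5 and 75.5).

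MicroRNAs are short non-coding RNAs that guide Argonaute proteins to mRNAs, most often through pairing of the seed, the bases 2 to 8 of the miRNA, with a complementary stretch of the mRNA. Paired mRNAs are translated less and degraded sooner. A miRNA with another seed reaches another set of mRNAs, and the seeds are therefore shown first, in capitals, in the mature sequences of RefSeq (GRCh38.p14).
hsa-miR-489-3p: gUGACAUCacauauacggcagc
hsa-miR-504-5p: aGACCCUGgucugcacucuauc
hsa-miR-504-3p: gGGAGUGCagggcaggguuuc
The first is encoded on the minus strand at chr7:93483947-93483968. The others are encoded on the minus strand of the X chromosome, at chrX:138667760-138667781 for the 5p arm and chrX:138667724-138667744 for the 3p arm. A full seed match in an mRNA reads GAUGUCA for miR-489-3p, CAGGGUC for miR-504-5p and GCACUCC for miR-504-3p. The 3 seeds differ, and transcripts were not searched for matches here.

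Relative to miR-504, miR-489 gave a level at least 2-fold lower for 384 of 16692 genes (2.3%) and at least 2-fold higher for 163 (0.977%). At 4-fold the numbers were 17 and 2. The median difference of all genes was 0.01 and the middle 50% of genes lay between −0.21 and 0.2. Cy3 was also compared with Cy3, and both channels hold RNA of control transfectants. This gave 63 genes (0.377%) on the lower side and 77 (0.461%) on the higher side of the same 2-fold limits. It uses 2 channels where the difference between the miRNAs uses 4, so that the counts are not a matched background. The comparison of Cy5 directly with Cy5, which also uses 2 channels, gave 492 genes lower and 217 higher. The SD over genes was 0.289 for Cy3 with Cy3, 0.45 for Cy5 with Cy5 and 0.409 for the difference between the miRNAs. Over 195 probes with at least 5 spots the SD of the difference between spots of a probe was 0.118 (root mean square), which covers error within the arrays only.

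**Figure D1:**
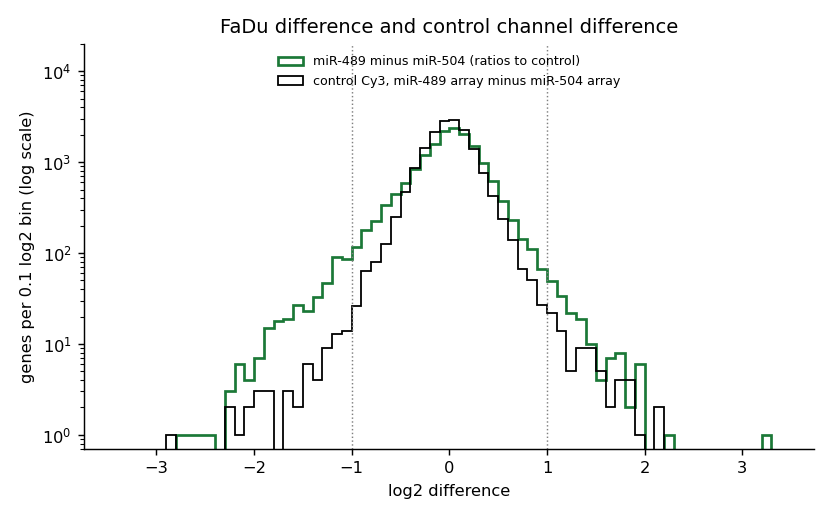
Number of genes (vertical axis, log scale, per bin of 0.1) by log2 difference (horizontal axis) for miR-489 minus miR-504 in FaDu cells (green) and for the Cy3 control channel of the miR-489 array minus that of the miR-504 array (black), with dotted lines at 2-fold. The green curve has 384 genes beyond the left line and 163 beyond the right line, and the black curve 63 and 77.

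Most of the difference among the lower genes was carried by the miR-489 array. Of the 384 genes, 223 were at least 2-fold below the control on the miR-489 array, 26 were at least 2-fold above the control on the miR-504 array and 135 were neither. The median log2 ratio of the 384 genes was −1.15 after miR-489 and 0.18 after miR-504. The 163 higher genes were more often low on the miR-504 array. Of these, 71 were at least 2-fold below the control after miR-504, 27 at least 2-fold above it after miR-489 (1 gene, KIAA1913, met both limits) and 66 neither. Their median log2 ratio was 0.34 after miR-489 and −0.88 after miR-504. These splits follow in part from how the genes were chosen and are given as a description.

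**Figure D2:**
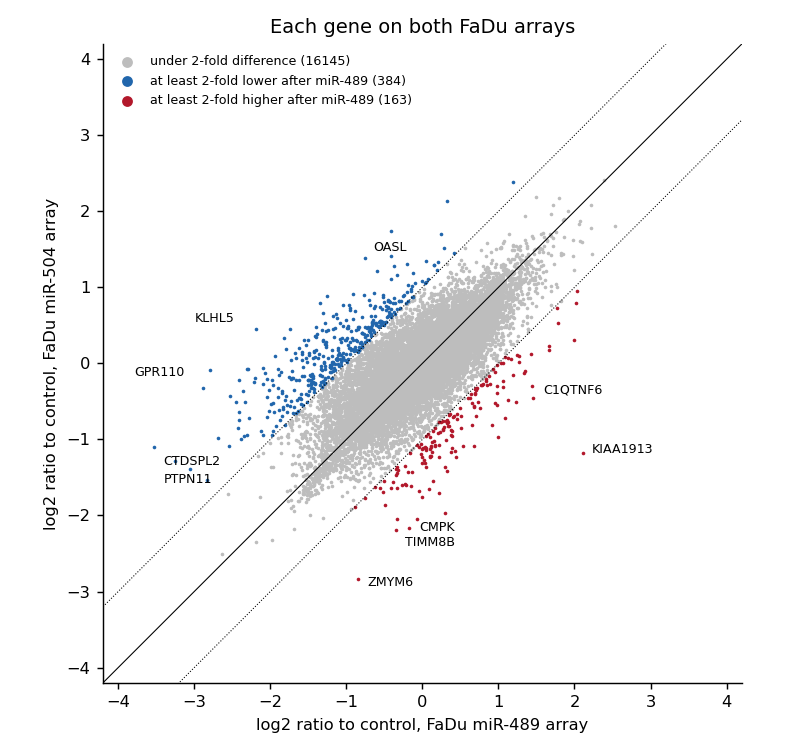
Log2 ratio to the control on the FaDu miR-489 array (horizontal axis) and on the FaDu miR-504 array (vertical axis), 1 point per gene, with the line of equality and dotted lines at a 2-fold difference. The 384 genes at least 2-fold lower after miR-489 (blue) lie above the upper dotted line, mostly left of 0, and the 163 higher genes (red) lie below the lower dotted line, mostly at negative values of the miR-504 array.

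A second probe was measured for 4235 genes. Over all of these, 2.01% of second probes lay 2-fold or more below 0 and 1.39% 2-fold or more above it. Of 77 lower genes with a second probe, 43 (55.8%) had a second probe that was also at least 2-fold lower, and 65 had one below 0. Of 35 higher genes, 18 (51.4%) had a second probe at least 2-fold higher and 33 one above 0. Probes of 1 gene share their RNA and are no replicates of the transfection. In 18 of the lower genes and 11 of the higher genes the control channel itself differed at least 2-fold between the arrays. Without all genes of that kind 366 genes were lower and 152 higher. In 3 of the 18 and 2 of the 11 the control channel differed in the same direction as the gene. Smaller control differences also matter. With Cy5 compared directly, 263 of the 384 lower genes and 106 of the 163 higher genes were past 2-fold in the same direction. The 547 genes at least 2-fold different were unevenly spread over signal strength. Of 4 equal bins by mean Cy3 signal over all arrays of the series, the dimmest held 145 lower and 46 higher genes. The brightest held 54 lower and 38 higher genes.

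The genes with the lowest differences, among genes with a clear control signal and no probe of opposite sign (the naming rule), covered membrane receptors, vesicle sorting, chromatin, actin and antiviral proteins. GPR110 (ADGRF1), an adhesion G protein-coupled receptor, had a log2 ratio of −2.79 after miR-489 and −0.09 after miR-504. Its Cy3 signals were 136 and 301, so that the control channel alone differed by −1.18, and a part of the difference of −2.7 depends on which channel is taken as the reference. With Cy5 compared directly with Cy5 the difference was −3.89. The Cy5 signal of GPR110 after miR-489 was dim, at 29.5. Another probe, that of the accession listed by the study, was not well above background in all channels. It had ratios of −2.58 after miR-489 and −1.03 after miR-504. KLHL5, a kelch-like protein, was next, with a ratio of −2.19 after miR-489 and 0.45 after miR-504, a difference of −2.64, and its other probes gave −1.47 and −1.24. CTDSPL2, a phosphatase-like protein, was below the control after both miRNAs, at −3.53 and −1.1, and differed by −2.43. For CYP1B1, a cytochrome P450 that oxidises steroids and aromatic hydrocarbons, the ratios were −2.29 and −0.07.

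AP1M2, the medium subunit of the epithelial clathrin adaptor that sorts proteins to the basolateral membrane, had Cy5 signals of 484 after miR-489 and 2321 after miR-504 against Cy3 signals of 1719 and 1720, a difference of −2.19. The Cy3 signals were nearly equal here, and the direct Cy5 difference was −2.24. CFL2, a cofilin that severs actin filaments, was below its control after miR-489 (−1.25) and above it after miR-504 (0.88), and its second probe gave −2.21 in place of −2.14. SUZ12, a core subunit of the Polycomb repressive complex that methylates histone H3, differed by −2.1 with ratios of −2.53 and −0.43. The other probes of SUZ12 gave −1.0 and −0.67, a smaller difference of the same sign. RRP22 (RASL10A), a RAS-like small GTPase, differed by −2.04. IFIT2 and OASL complete the 10 lowest and are described with the interferon-stimulated genes. In 8 of the 10 lowest genes, all but IFIT2 and OASL, HSC3 cells also had a negative difference, from −2.4 for KLHL5 to −0.66 for RRP22.

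**Figure D3:**
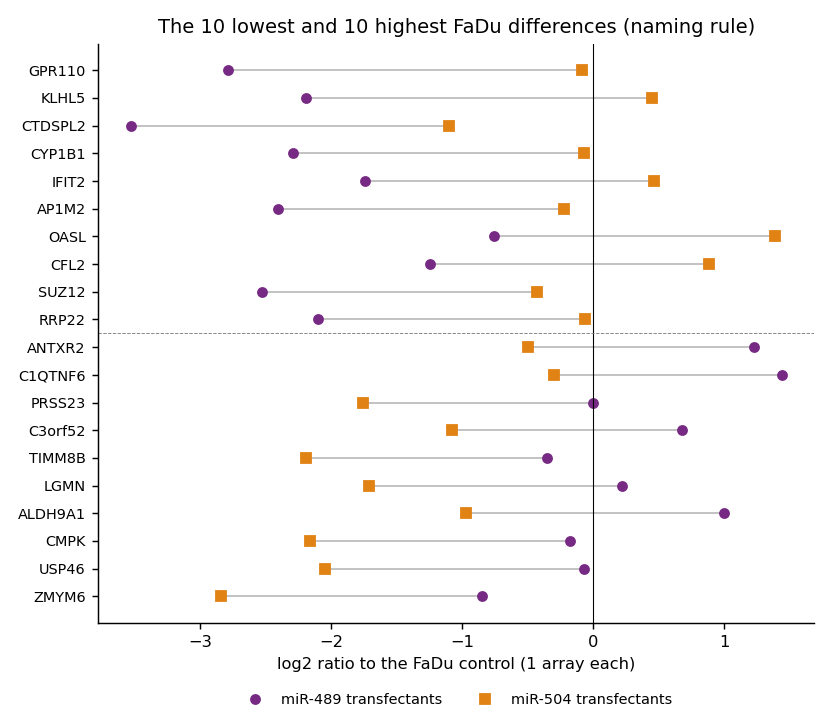
Log2 ratio to the FaDu control (horizontal axis) after miR-489 (circles) and after miR-504 (squares), 1 array each, for the 10 lowest and 10 highest differences by the naming rule, separated by the dashed line. In the upper group the circles lie far left of the squares, from −3.53 to −0.76, while most squares lie near 0, and in the lower group the squares lie left of the circles.

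Under the naming rule, the highest differences were just under 4-fold. ZMYM6, a zinc finger protein, was below the control after both miRNAs, at −0.85 after miR-489 and −2.84 after miR-504, a difference of 1.99, whereas its other probes gave 0.48 and 0.66. USP46, a deubiquitinating enzyme, had Cy5 signals of 267 after miR-489 and 72 after miR-504 against Cy3 signals of 188 and 190, and differed by 1.98. Its second probe gave 1.24. CMPK (CMPK1), the kinase that phosphorylates UMP and CMP, was near the control after miR-489 (−0.18) and at −2.16 after miR-504. LGMN, a lysosomal asparaginyl endopeptidase, and TIMM8B, a small chaperone of the mitochondrial intermembrane space, showed the same order, with ratios of 0.22 and −1.71 for LGMN and −0.35 and −2.19 for TIMM8B. PRSS23, a serine protease, was at 0 (to 2 decimals) after miR-489 and −1.76 after miR-504.

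In other genes of this group the miR-489 array contributed a higher level. ALDH9A1, an aldehyde dehydrogenase used in carnitine synthesis, had ratios of 1.0 and −0.97. C1QTNF6, a secreted protein of the C1q and TNF related family, was 1.44 above the control after miR-489 and −0.3 after miR-504. C3orf52 differed by 1.77. ANTXR2, a receptor of anthrax toxin that also binds extracellular matrix proteins, differed by 1.73 between ratios, but its control channel differed by −1.37 and the direct Cy5 difference was 0.35. All 10 highest genes also had a positive difference in HSC3 cells, from 0.51 for ANTXR2 to 1.89 for CMPK.

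Outside the naming rule and chosen after their values were seen, the 2 genes at least 4-fold higher were KIAA1913 (TMEM200A) and the transcript of probe A_24_P835388, which has no gene name here. KIAA1913 was above the control after miR-489 (2.11) and below it after miR-504 (−1.18), a difference of 3.29, and its second probe gave 2.96. Its Cy3 signals were dim, at 57 and 107. The control channel of KIAA1913 differed by −0.95 and the direct Cy5 difference was 2.33. Its HSC3 difference was 0.64 by the same probe. Among the lower genes ZNF750, a transcription factor of epidermal differentiation, differed by −2.15. Its Cy3 signals of 36 and 42.5 were too dim for the rule, and the difference lay mostly in a ratio of 1.74 after miR-504 against −0.41 after miR-489. The transcript THC2319814 differed by −2.55, with a control channel that differed by 2.11 and a direct Cy5 difference of −0.45.

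For 129 further genes Cy5 was well above background on only 1 of the arrays, with both Cy3 channels well above it. The difference is given as an approximate bound. It uses the signal read in the dim channel or a floor, and the true signal of a dim spot may be higher. Of these, 97 were dim after miR-489 and 32 dim after miR-504. At least 2-fold bounds were found for 42 genes on the lower side and 7 on the higher side. ALS2CR13 (FAM117B) had Cy5 signals of 19 after miR-489 and 105 after miR-504 and was about 7.87-fold lower after miR-489. VSNL1, a neuronal calcium sensor protein, was about 5.83-fold lower and C3orf34 (CEP19), a centrosomal protein, about 5.67-fold lower. FLJ41603 (ARHGEF37) was about 4.6-fold lower and ADRA1B, an adrenergic receptor, about 3.63-fold lower. All 5 had a negative difference in HSC3 cells, from −0.34 for FLJ41603 to −2.57 for ALS2CR13.

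Bounds on the other side were fewer. C4orf13 (SLC10A7), a transporter-like membrane protein, was about 5.48-fold higher after miR-489 and CHI3L2, a chitinase-like protein, about 4.55-fold higher. OMP and GPC4 were about 1.62-fold and 1.59-fold higher. In HSC3 cells the difference was 1.91 for C4orf13 and −0.25, of opposite sign, for GPC4. CHI3L2 and OMP were not well above background in all channels there.

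PTPN11 encodes SHP2, a tyrosine phosphatase that transmits signals of growth factor receptors to RAS and the mitogen-activated protein kinase ERK. It lies at chr12:112418947-112509918 (GRCh38.p14). The Cy5 signal of its brightest probe was 1893 after miR-489 and 8184 after miR-504, against Cy3 signals of 12054 and 12739. By this probe the level was below the control after both miRNAs, and 3.9-fold lower after miR-489 than after miR-504. The other measured probes of PTPN11 gave differences of −1.42 and −0.78, and the first of these was below the control after miR-489 (−1.07) but not after miR-504 (0.35). Of the 20 listed genes of the SHP2 and RAS-MAPK core, 17 were measured, and PTPN11 was the 1 gene among them at least 2-fold lower, with 0 higher. Over all genes the shares were 2.3% and 0.977%. The median difference of the 17 was 0.09, and without PTPN11 all others lay within 2-fold.

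Genes that ERK switches on in turn lay on both sides of 0. Of 19 measured feedback and immediate early genes, 3 were at least 2-fold higher after miR-489 (0.977% of all genes) and 1 at least 2-fold lower (2.3%), with a median of 0.28. SPRY4, an inhibitor of receptor signalling to RAS, had ratios of 1.34 after miR-489 and −0.1 after miR-504. DUSP4, a nuclear phosphatase of ERK, had 1.06 and −0.24. DUSP6, the cytoplasmic ERK phosphatase, had 0.39 and −0.95. EGR1, an immediate early transcription factor, was below the control after both miRNAs, at −2.38 and −1.0. Their differences were 1.45, 1.3, 1.34 and −1.39. The control channels of these genes were not level, with a median control difference of −0.43 over the list, and with Cy5 compared directly the median was −0.06 in place of 0.28, with 1 gene higher and 2 lower. In HSC3 cells the differences of SPRY4, DUSP4, DUSP6 and EGR1 were 0.2, 0.05, 0.24 and −0.22.

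Of 12 measured genes of the EGFR family, its ligands and inhibitors, 2 were lower by 2-fold or more and 0 higher. The shares over all genes were 2.3% and 0.977%. ERRFI1, an inhibitor of the EGFR kinase, had ratios of −2.12 after miR-489 and −0.89 after miR-504. Its difference was −1.23 in FaDu and −1.44 in HSC3 cells. In FaDu cells its control channel differed by −1.09 and the direct Cy5 difference was −2.33. ERBB3, a receptor that pairs with other receptors of the family, was near the control after miR-489 (−0.18) and above it after miR-504 (1.03). The median difference of the 12 genes was −0.21.

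Interferon-stimulated genes are switched on by transcription factors that interferon receptors activate, and encode antiviral effectors. Many cells also switch them on through sensors of double-stranded RNA. Of 35 listed genes 34 were measured, 8 had a level after miR-489 that was 2-fold or more below that after miR-504 and 0 were higher, where the shares over all genes were 2.3% and 0.977%. The median difference was −0.47, and 30 of the 34 lay below 0. Over the 34 genes the median log2 ratio was −0.04 after miR-489 and 0.53 after miR-504. This list was chosen with an earlier analysis of these arrays known, and its counts are a description.

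Among the 8 lower genes are effectors that bind foreign RNA. IFIT2, a protein of the IFIT family that binds foreign RNA, had Cy5 signals of 1572 after miR-489 and 4825 after miR-504, against Cy3 signals of 3521 and 2239. Its ratios were −1.74 and 0.46, and its second probe gave a difference of −2.18 beside −2.2. OASL, a protein related to the oligoadenylate synthetases, had Cy5 signals of 6572 and 13718 and Cy3 signals of 7444 and 3335. The Cy3 channels of OASL thus differed by 1.12, and the direct Cy5 difference was −1.04 in place of −2.15. RTP4, a chaperone of G protein-coupled receptors, had ratios of −1.9 and −0.07, and RSAD2 (viperin), an antiviral enzyme, had −0.91 and 0.91.

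The remaining 4 lower genes, outside the naming rule, were HERC5, the ligase that attaches ISG15 to proteins (−1.82), IFI44L (−1.79), IFIT1 (−1.74) and IFIT3 (−1.72). Below 2-fold the next was the RNA sensor DDX58, at −0.81, with a control difference of 1.02 and a direct Cy5 difference of 0.2, of opposite sign. STAT2, which carries the signal of the receptors, was at 0.62, and IRF9 (ISGF3G on the array) at −0.5. Members of the list were thus widely spread, with the IFIT genes 1 to 3 far below 0 and IFITM2, IFITM3 and BST2 between −0.09 and −0.04.

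The control channel moved with this list. The median control difference of the 34 genes was 0.22, and 4 of them (OASL, HERC5, DDX58 and IFI27) differed at least 2-fold in the Cy3 channels. Without these 4 genes the median was −0.39 and 6 of 30 genes were at least 2-fold lower. With Cy5 compared directly the median was −0.21 and 7 genes were lower, 5 of them among the 8 above. These 5 were IFIT2 (−1.6), OASL (−1.04) and RTP4, RSAD2 and IFI44L, whose control channels differed by 0.16, 0.2 and 0.06 and whose direct differences were −1.68, −1.64 and −1.74. HERC5, IFIT1 and IFIT3 did not reach 2-fold in this way, at −0.79, −0.97 and −0.93. The other 2 of the 7 were IFI27, at −2.18 with a control difference of −1.95, and IRF7, at −1.04. RTP4 and RSAD2 were dim, with Cy5 signals after miR-489 of 48.5 and 45. By ratios to the control and with signals at least 3 times background, 5 of 27 members were at least 2-fold lower, with a median of −0.48. The part of the control cultures in the list's difference was not tested.

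Of 33 members measured in both lines 0 were at least 2-fold different in HSC3 cells, the median there was 0.15, and 24 lay above 0 and 9 below it. IFIT2, OASL and RTP4 had HSC3 differences of 0.72, 0.32 and 0.83. IFI44L and HERC5 had −0.24 and −0.11. Whether the lines differ could not be tested with 1 array per line and miRNA.

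**Figure D4:**
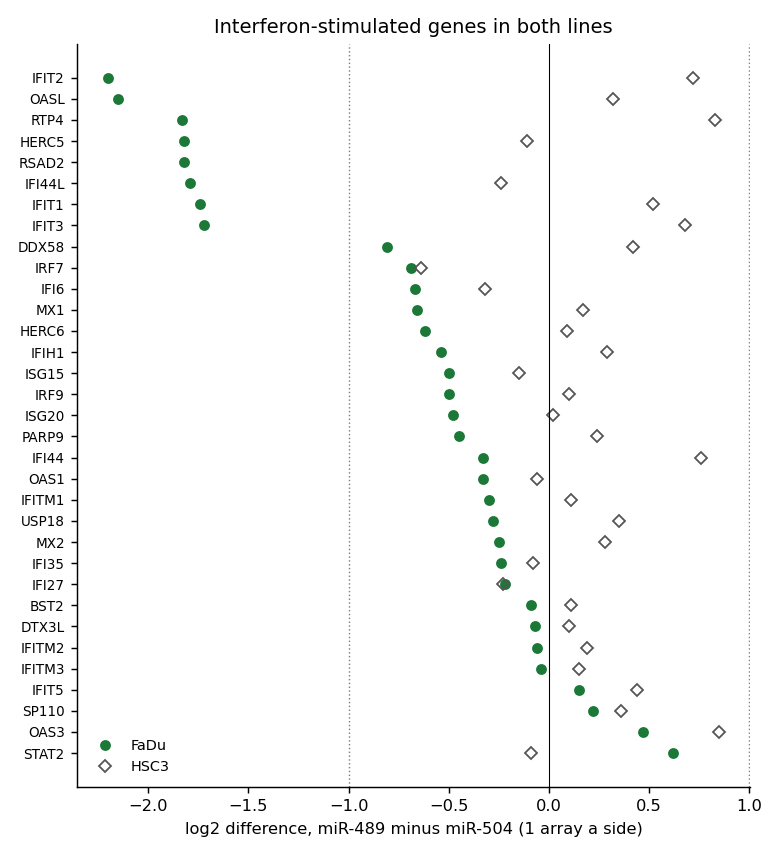
Log2 difference, miR-489 minus miR-504 (horizontal axis), of 33 interferon-stimulated genes measured in FaDu cells (filled circles) and 32 of them in HSC3 cells (open diamonds), 1 array a side, with dotted lines at 2-fold. The 8 FaDu values left of the dotted line lie between −2.2 and −1.72, and 23 of the HSC3 values lie right of 0.

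Because these genes share a control element, their promoters were searched for the core of the interferon-stimulated response element, GAAANNGAAA on either strand, in which N is any base. The windows were those of RefSeq (GRCh38.p14), 250 bases before to 50 after the gene start. The core was found in 18 of 27 windows of listed genes and in 3.58% of all 35093 windows. Of the lower genes 6 had a window and 5 of these held the core. Of the other measured members with a window 13 of 21 held it. Stretches of the promoters of 4 lower genes are shown 5′ to 3′ on the strand of the gene, with the core in capitals (in its reverse form where it reads TTTCNNTTTC).
IFIT1: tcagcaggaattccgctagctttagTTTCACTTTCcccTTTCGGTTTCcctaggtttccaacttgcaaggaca
IFIT3: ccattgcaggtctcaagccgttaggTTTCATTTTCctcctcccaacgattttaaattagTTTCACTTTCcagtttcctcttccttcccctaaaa
HERC5: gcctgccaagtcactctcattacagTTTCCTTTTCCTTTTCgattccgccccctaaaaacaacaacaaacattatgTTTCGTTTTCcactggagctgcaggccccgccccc
RTP4: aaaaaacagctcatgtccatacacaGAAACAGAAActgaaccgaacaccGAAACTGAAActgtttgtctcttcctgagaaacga
They lie on the plus strand at chr10:89392482-89392554, chr10:89327816-89327909, chr4:88456969-88457079 and chr3:187368318-187368401, in this order. The core is held at 3 positions by HERC5, of which the first 2 overlap and are capitalised as 1 run, and at 2 positions by each of the others. A match is a sequence feature only.

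Related immune lists are given next. Of 17 measured genes of HLA class I presentation 0 were past 2-fold, where 2.3% of all genes were lower and 0.977% higher. Of the 17 genes 15 lay below 0, and the median was −0.14. PSMB8, a subunit of the immunoproteasome, was the lowest at −0.84 and LRAP (ERAP2), a peptide-trimming enzyme, was at −0.38. Of 20 measured cytokine, chemokine and NF-kB feedback genes 1 was lower (2.3% of all genes) and 2 were higher (0.977%), with a median of 0.08. IL15, which sustains natural killer and T cells, had ratios of −2.21 after miR-489 and −0.24 after miR-504. IL24 had 0.37 and −0.88, a difference of 1.25, and its second probe was below the control after both miRNAs (−0.77 and −1.56) and differed by 0.79. IL8 (CXCL8), the neutrophil chemokine, lay at the threshold with 1.0, but its control channel differed by −1.52 and the direct Cy5 difference was −0.53, of opposite sign. The HSC3 differences were −0.3 for IL24 and −0.83 for IL8.

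Among chromatin regulators of the Polycomb group, 3 of 18 measured genes were at least 2-fold lower (2.3% of all genes) and 0 higher, with a median of 0.03. All 3 belong to the complex that methylates histone H3. Beside SUZ12 these were RBBP4, a histone-binding subunit, with ratios of −1.67 after miR-489 and −0.22 after miR-504, and JARID2, a subunit that recruits the complex, at the threshold with −1.0. Their HSC3 differences were −1.85 for SUZ12, −1.47 for RBBP4 and −1.2 for JARID2. Other listed genes of this complex were within 2-fold in FaDu cells, with EZH2 at −0.07, EED at 0.07 and RBBP7 at −0.01. EZH1 (0.42), PHF1 (0.36), MTF2 (0.2) and PHF19 (0.52) lay above 0. Of the 13 measured genes of the clathrin adaptor AP-1, 2 were lower (2.3% of all genes). They were AP1M2 and the small subunit AP1S1 (−1.84, with −2.43 by its other probe). The HSC3 differences of these were −2.05 and −1.87. The median of the 13 genes was −0.2.

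Of 20 measured genes of the NRF2 antioxidant programme 4 were lower by 2-fold or more (2.3% of all genes) and 0 were higher, with a median of −0.13. SLC7A11, the cystine transporter, had ratios of −1.29 after miR-489 and 0.02 after miR-504, and its other probes gave differences of −1.64 and −1.18. GCLC, the catalytic subunit of the enzyme that starts glutathione synthesis, was at −2.1 and −0.94 by its brighter probe, whereas the other probe was above the control after both miRNAs (0.17 and 0.65), with a difference of −0.48. AKR1C1, an aldo-keto reductase, was at −0.56 and 0.56. AKR1B10, another aldo-keto reductase, had a difference of −1.09, a control difference of 0.83 and a direct Cy5 difference of −0.27. With Cy5 compared directly 2 of the 20 genes were lower. In HSC3 cells SLC7A11 had −1.14 and the others −0.57 to −0.35.

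Of 25 genes of the unfolded protein and integrated stress response, all measured, 2 were at least 2-fold lower (2.3% of all genes) and 0 higher (0.977%). Beside SLC7A11 this was ATF3, a stress-induced transcription factor, with ratios of −1.14 after miR-489 and 0.66 after miR-504. The median of the 25 was 0.

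Cell cycle genes were close to 0 as groups. Of 33 DNA replication genes, all measured, 0 were past 2-fold, where 2.3% of all genes were lower and 0.977% higher. The median was 0.1 and the farthest were PRIM1, the small primase subunit (−0.94), and the licensing factor CDC6 (−0.54). Of 33 mitotic genes 1 was higher (0.977% of all genes), and the median was 0. This gene was ANLN, an actin-binding protein of the cleavage furrow (1.03 in FaDu and 1.24 in HSC3 cells). Among 23 measured genes of G1/S control 1 was lower (2.3% of all genes) and 1 higher (0.977%). CDKN1B (p27), an inhibitor of cyclin-dependent kinases, had ratios of −1.19 after miR-489 and 0 after miR-504, with an SD of 0.0594 over its 10 spots, and its other probe gave −1.25. The direct Cy5 difference of CDKN1B was −0.94, under 2-fold. CCND2, a D-type cyclin, was at −0.22 and −1.58, and its other probes gave differences of 0.64 and 1.03. The HSC3 differences were −0.38 for CDKN1B and 0.24 for CCND2.

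Genes of epithelial state differed in single members. Of 19 measured squamous differentiation genes 2 were lower (2.3% of all genes) and 0 higher (0.977%), with a median of −0.07. PKP1, a desmosomal plakophilin, had ratios of −0.45 after miR-489 and 0.74 after miR-504. LY6D, a surface protein of stratified epithelium, had a difference of −1.81, but its Cy5 signals of 714 and 702 were alike while its Cy3 signals were 381 and 102, so that the direct Cy5 difference was 0.05. Of 20 measured mesenchymal genes 2 were at least 2-fold higher (0.977% of all genes) and 0 lower (2.3%). CTGF (CCN2), a matricellular protein, had ratios of 0.68 and −0.57, and CDH2 (N-cadherin) 0.5 and −0.69. Of 13 measured Notch pathway genes 1 was lower (2.3% of all genes). This was the ligand JAG1, with ratios of −0.52 and 0.9 and an HSC3 difference of −1.18. Of 12 measured TGF-beta and SMAD genes 0 were past 2-fold, where 2.3% of all genes were lower and 0.977% higher. ID3 was at −0.84 and ID1 at −0.81. For ID3 the control difference was 1.44 and the direct Cy5 difference 0.59, of opposite sign.

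Housekeeping lists and some others held few or no genes past 2-fold. Over all genes 2.3% were lower and 0.977% higher, so that few or none in lists of this size is near those shares. Of 56 cytosolic ribosomal protein genes, all measured, 1 was past 2-fold, on the lower side (2.3% of all genes), and the median was −0.01. This gene was RPS12 (−1.15 in FaDu and −0.15 in HSC3 cells). Its control channel differed by 0.44 and the direct Cy5 difference was −0.72, under 2-fold. Of 53 oxidative phosphorylation genes 0 were past 2-fold, with a range of −0.43 for ATP5D (ATP5F1D) to 0.54 for SDHC and a median of 0.01. Of 22 glycolysis genes 0 were past 2-fold, with HK2 at −0.89 and LDHA at −0.66. Of 25 cholesterol synthesis genes 0 were past 2-fold, with TM7SF2 at −0.69. The same held for 22 measured genes of the miRNA machinery (DCP2 −0.76, PAN3 −0.71), 16 BCL2 family genes (BCL2L1 0.77, BCL2L11 0.46) and 7 oncofetal genes of the LIN28B and let-7 group (PLAG1 −0.68, H19 −0.37). GAPDH and ACTB differed by 0.19 and 0.17.

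**Figure D5:**
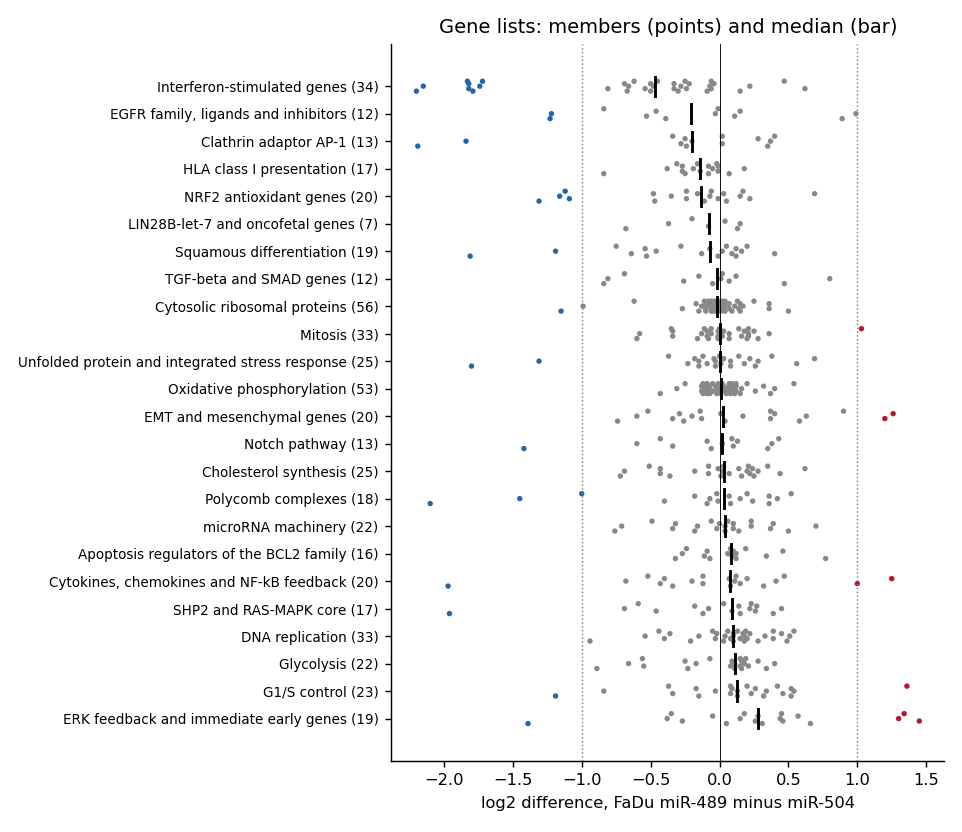
Log2 difference in FaDu cells, miR-489 minus miR-504 (horizontal axis), of each measured member (points) of the gene lists with the list median (bar), ordered by median and with the number measured in parentheses. Blue points are at least 2-fold lower, red points at least 2-fold higher and dotted lines mark 2-fold. The interferon-stimulated genes have the lowest median (−0.47) and the ERK feedback genes the highest (0.28), and most points of the other lists lie near 0.

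The study had listed 53 genes as low on the FaDu miR-489 array. Because they were selected on that array, a negative difference is in part fixed by their choice, and the counts below are a description. Measured in all channels of both FaDu arrays were 42 listed genes, by the probe of the listed accession or, failing that, the symbol. Of these, 29 had a difference of −1 or below and 0 one of 1 or above, where the shares over all genes were 2.3% and 0.977%. The median was −1.42, with quartiles of −2.0 and −0.63. The 5 lowest were KLHL5 (−2.64), AP1S1 (−2.43), CTDSPL2 (−2.43), AHNAK (−2.24) and CYP1B1 (−2.22). AHNAK, a giant scaffold protein, had Cy5 signals of 2066 and 8501, and other probes of it ranged from −1.99 to 1.08, so that the direction depends on the probe. A group of listed genes was about as low after miR-504 as after miR-489, among them A2ML1 (−2.64 after miR-489 and −2.51 after miR-504), MARCKS (−2.14 and −1.75) and CDK6 (−1.98 and −2.32), which were chosen after their values were seen. Over 26 measured genes for which the study lists a miR-489 site the median was −1.71 with 20 at least 2-fold lower. Over 16 genes without one it was −1.22 with 9 lower. Whether the site has a part in this was not tested. Some of the 42 genes were not below the control after miR-489 by the probe used here. Examples, chosen after their values were seen, are NF2 (0.02), RAVER2 (0.28) and TMEM64 (0.27). These genes are included in the counts and medians. Whether another probe carried the listed value was not tested.

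HSC3 cells had their own control RNA and their differences were not used to choose the FaDu genes. Their Cy3 signals did enter the choice of the brightest probe of a gene, which was made over all 4 arrays. Over 15604 genes measured in both lines, the HSC3 difference was −1 or below for 1.49% and 1 or above for 0.545%. Of 325 genes lower in FaDu cells and measured in both, 109 were also at least 2-fold lower in HSC3 cells, which is 33.5% of the FaDu genes and 47% of the 232 HSC3 genes. Of 153 genes higher in FaDu cells, 43 were also higher in HSC3 cells, which is 28.1% of the FaDu genes and 50.6% of the 85 HSC3 genes. The median HSC3 difference was −0.72 over the 325 genes and 0.69 over the 153 genes. The HSC3 difference had the same sign in 300 of the 325 and in 137 of the 153 genes. At least 2-fold in the opposite direction was found for 1 gene of the lower and 0 of the higher genes. The lines share no RNA, but they share the probes, the slide and the scan.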

How the data were processed

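miR-489 and miR-504 transfectants of FaDu and HSC3 (RNA in Cy5) were hybridised against control transfectants (RNA in Cy3) on 4 arrays of 1 slide and 1 scan, with no dye swap. The authors deposited spot and local background intensity, 0 or 1 marks per spot, and log10 ratios made with Feature Extraction 9.5.3.1. The deposited value table equalled these log10 ratios.

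Here the background was subtracted from the median intensity. Log2 ratios were centred on the median of spots well above background in both channels (0.58 and 0.65 removed on the FaDu miR-489 and miR-504 arrays). Outlier spots (137 and 118) were left out and spots of a probe averaged. The brightest probe, by mean log2 Cy3 signal over all 4 arrays, was taken for a gene. The number of arrays limits the precision. Members and lists were chosen with earlier results of these data known.

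Genes named are the 10 lowest and 10 highest differences among genes with a symbol, a Cy3 signal over 3 times background and other probes of the same sign; 5 bounds each way; PTPN11, GAPDH and ACTB; the 5 lowest study-list genes; and, per list, up to 4 members past 2-fold or else the 2 farthest; a few such genes and 1 list are not reported here. A bound takes for the dim channel its own signal or, where that is lower, the lowest well above background on that array (9.5 or 10.5). It is therefore approximate. The calculation was tested on simulated data. R 4.3.3, limma 3.58.1, Python and pandas were used.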

Additional observations from a re-analysis of the deposited data

Results flagged for a closer look

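For 5 named genes at least 2-fold different in FaDu cells, the difference between the miRNAs had the opposite sign in HSC3 cells by more than 2 SDs over spots (0.118 in each line). The FaDu difference minus the HSC3 difference was −2.92 for IFIT2, −2.47 for OASL and −2.66 for RTP4, all interferon-stimulated, and 1.55 for IL24 and 1.83 for IL8, both cytokines. Each rests on 1 array per line and miRNA, and the difference between the lines was not tested. On the miR-504 arrays the log2 ratio of IFIT2 was 0.46 in FaDu and −0.81 in HSC3 cells, and that of RTP4 was −0.07 and −1.68. On the miR-489 arrays those of IFIT2 were −1.74 and −0.09 and those of RTP4 −1.9 and −0.84. For OASL the FaDu control channels differed by 1.12, whose part in the value was not tested. For IL8 the FaDu difference was 1.0 and the HSC3 difference −0.83, but the FaDu control channels differed by −1.52 and the direct Cy5 difference was −0.53, of the same sign as in HSC3 cells. For IL24 a second probe gave a FaDu difference of 0.79 in place of 1.25.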

How the results depend on the processing

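No paired analysis was possible because each miRNA has 1 array in FaDu cells, and for the same reason no replicate could be left out. The comparison of genes with and without seed matches was not run, since it needs transcript sequences, which were not used here. The numbers of genes at least 2-fold lower and higher (384 and 163) were 177 and 83 with a normexp background correction, 178 and 83 without background subtraction, 171 and 64 with normexp followed by loess, 197 and 91 with signals at least 3 times background, and 2479 and 2222 without a filter on dim probes. At 1.5-fold they were 1306 and 753 and at 4-fold 17 and 2. With these settings in the same order, apart from normexp followed by loess, the control channels gave 26 and 23, 19 and 19, 23 and 21, 813 and 827, 387 and 382, and 6 and 2. Of 312 list medians recalculated over 12 settings, 301 moved by less than the SD over spots (0.118) and 11 by more. With Cy5 compared directly with Cy5 these were −0.15 for the SHP2 and RAS-MAPK core, −0.06 for ERK feedback, −0.21 for interferon-stimulated, −0.19 for cytokine, −0.21 for Notch, −0.55 for oncofetal and −0.08 for miRNA machinery genes and 0.25 for squamous markers. The ERK feedback median was 0.47 with the deposited log10 ratios and with the deposited value table, and the EGFR family median −0.39 with signals at least 3 times background. Of 58 named genes past 2-fold, 47 to 58 were past 2-fold in the same direction under 5 settings (normexp, mean spot signal, loess, total signal and Cy5 against Cy5). The sign was opposite for 2, LY6D (0.05) and IL8 (−0.53), both with Cy5 compared directly. Leaving out genes by their control channels was chosen after seeing the data. The causes were not tested.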
